A study of Mus musculus with 12 samples.

Results

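Adm, Calcrl, Ramp1, Ramp2 and Ramp3 encode the peptide hormone adrenomedullin and the parts of its cell surface receptors. All non-control probes carrying one of these 5 gene names were taken from arrays of mouse embryonic fibroblasts (MEFs), connective tissue cells cultured from E12.5 embryos. They were 7 of 41174 probes. Of these 7, 5 probes passed the filter on dim signals, 1 for each gene, and these 5 are among the 20836 genes tested. The study compared 4 groups of 3 arrays each. GR-C3 Dex and GR-C3 vehicle were homozygous GR-C3 knockin cells given 100 nM Dex or vehicle for 6 h, and WT Dex and WT vehicle were wild-type cells treated in the same ways. Dex (dexamethasone) is a synthetic agonist of the glucocorticoid receptor (GR), the product of Nr3c1. In the knockin allele the start codon of the GR-C3 translational isoform was kept and the start codons of the other isoforms in exon 2 were changed, so GR-C3 was the isoform the allele could still start. The knockin mice came from a single embryonic stem cell clone and, like the WT mice, were kept on C57Bl/6. The samples of a group are called biological replicates, and the labels do not name the embryo or culture behind each, so every p-value here measures the spread between these samples.

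Adrenomedullin is a secreted peptide that widens blood vessels, and its gene is a known target of the hypoxia response. Its receptor is a complex: Calcrl encodes a G protein-coupled receptor that reaches the cell surface together with a receptor activity-modifying protein (RAMP), a single-pass membrane protein that sets which ligand is bound. With RAMP1 the complex is the receptor for calcitonin gene-related peptide, and with RAMP2 or RAMP3 it is an adrenomedullin receptor. The receptors signal mainly through Gs and adenylyl cyclase. In mice, loss of Adm, Calcrl or Ramp2 is lethal before birth, with defects of vessels and lymphatics.

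The 7 probes are what each value below rests on, so the first 30 bases of each 60-base probe are given 5′ to 3′, with positions of the whole probe in mouse build mm7 as in the file headers. No annotation of mm7 was used here, so exon, intron or UTR was not assigned. A single probe served Adm, at chr7:106544845-106544904 on the plus strand. Calcrl had a bright probe at chr2:84174628-84174687 and a dim one at chr2:84176632-84176691, both on the minus strand and 1944 bases apart. Of the 2 Ramp1 probes, the bright one maps in pieces within chr1:91104321-91130576, a span of 26256 bases. The dim one lies 9018 bases before it at chr1:91095243-91095302 and is annotated in the files to the transcript AK037826. The Ramp2 probe lies at chr11:101357227-101357286 and the Ramp3 probe at chr11:6629300-6629359, both on the plus strand.
Adm: taagggcattttaaagtgattatattgtca
Calcrl, bright: ttgttgataaaccagccttcctggaggtta
Calcrl, dim: cactttaaccctctttataacttctcttgt
Ramp1, bright: agacgctatggtgtgactggggaaagacca
Ramp1, dim: aaagccgtttttctttccaaatgctttcta
Ramp2: cagcaaaggggactcacgacacaatgtttg
Ramp3: cgattctgtgtccagtgtgggctggagctg
The GC content of the whole probes was 35% for Adm, Ramp2, both Calcrl probes and the dim Ramp1 probe, 51.7% for the bright Ramp1 probe and 53.3% for Ramp3.

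The 250 bases before the start of 4 of the 5 genes were matched in RefSeq (GRCm38.p6), and letters known from glucocorticoid response elements and from the hypoxia response were searched on both strands. AGAACA, the half-site of a glucocorticoid response element, is present in 16.1% of 32851 mouse upstream windows of this length and was in none of the 4 windows (Adm, Calcrl, Ramp1, Ramp3). The palindrome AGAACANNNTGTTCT, which contains that half-site, was found in 3 windows, or 0.00913%, and in none of the 4. ACGTG, 1 of 2 hypoxia response cores searched, is in 16.6% of windows and was in none of the 4. The other core, GCGTG, is in 28.2% of windows. It occurred at 2 places each before Adm and Ramp3, and not before Calcrl or Ramp1. The Adm and Calcrl windows are shown because these genes had called Dex changes in both genotypes on 11 arrays. The Adm window is chr7:110627407-110627656 on the plus strand and the Calcrl window chr2:84425267-84425516 on the minus strand, both of GRCm38.p6. Capitals mark the matches before Adm, on the minus strand 90 and 54 bases before the start, and Calcrl has none.
Adm, upstream: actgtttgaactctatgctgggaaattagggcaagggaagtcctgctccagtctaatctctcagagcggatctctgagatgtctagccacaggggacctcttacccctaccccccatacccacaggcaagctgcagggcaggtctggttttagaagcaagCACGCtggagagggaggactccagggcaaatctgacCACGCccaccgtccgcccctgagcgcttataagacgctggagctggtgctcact
Calcrl, upstream: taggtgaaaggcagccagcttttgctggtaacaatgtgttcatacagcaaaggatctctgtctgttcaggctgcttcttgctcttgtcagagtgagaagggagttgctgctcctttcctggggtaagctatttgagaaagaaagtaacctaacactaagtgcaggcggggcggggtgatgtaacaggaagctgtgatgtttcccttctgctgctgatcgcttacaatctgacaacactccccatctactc
A match of letters is a description of a window, and the absence of one says only that the letters are not in it.

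One array stood apart before any test. The array labelled WT vehicle replicate 1 correlated at r = 0.983 with each of the other 2 WT vehicle arrays, which correlated at 0.998 with each other, and at 0.987 to 0.989 with the WT Dex arrays (over all tested genes, which are not independent). Fkbp5, a widely used Dex-induced gene that encodes a chaperone of the GR, was at 0.46, 0.94 and 0.96 in GR-C3 Dex, -2.24, -2.38 and -2.24 in GR-C3 vehicle, 2.15, 1.89 and 2.06 in WT Dex, and 1.51, -2.64 and -2.74 in WT vehicle. These and all levels below are log2 signal minus the 75th percentile of the array. They compare a gene between arrays and not 1 gene with another. The Fkbp5 level of WT vehicle replicate 1 was thus next to those of WT Dex, against its label. It was also alone on its slide and on its scan day, so its place there cannot be told apart from whatever else differs in that sample. Each result is therefore given with all 12 arrays and without it, with 11. Nr3c1 was at 1.39 to 1.53 in GR-C3 Dex, 1.83 to 1.86 in GR-C3 vehicle, 1.06 to 1.26 in WT Dex and 1.2 to 1.8 in WT vehicle, which measures its RNA and not which start codon is used. The 75th percentile lay between 884.3 and 1821 intensity units, and the share of probes well above background was 70.7 to 78.4%. The number of arrays limits the precision.

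Differences are log2, tested with limma over all genes with Benjamini-Hochberg adjustment, and a gene is called at an adjusted p under 0.05. Because these genes were chosen with earlier results of the same arrays known, an adjusted p says where a gene lies in the fit over all genes and is not independent evidence. With 12 arrays, 0 of the 5 genes were called for Dex in either genotype, where 0.101% of all genes were called in GR-C3 cells and 0.12% in WT cells. With 11 arrays, 1 of 5 rose (Adm) and 1 fell (Calcrl) in GR-C3 cells, where 2.08% of all genes rose and 1.37% fell. In WT cells 3 of 5 rose (Adm, Ramp2 and Ramp3) and 1 fell (Calcrl), where 5.37% of all genes rose and 6.86% fell. The median Dex change of the 5 genes was 0.25 in GR-C3 cells, against -0.01 over all genes, with either set of arrays. In WT cells it was 0.47 with 12 arrays and 0.64 with 11, against 0.00 and 0.02 over all genes. The Ramp2 response differed between the genotypes with 11 arrays, being 1.19-fold and not called in GR-C3 cells and 6.4-fold in WT cells. The Dex, vehicle and interaction comparisons share arrays, so their values are not independent of each other.

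**Figure D1:**
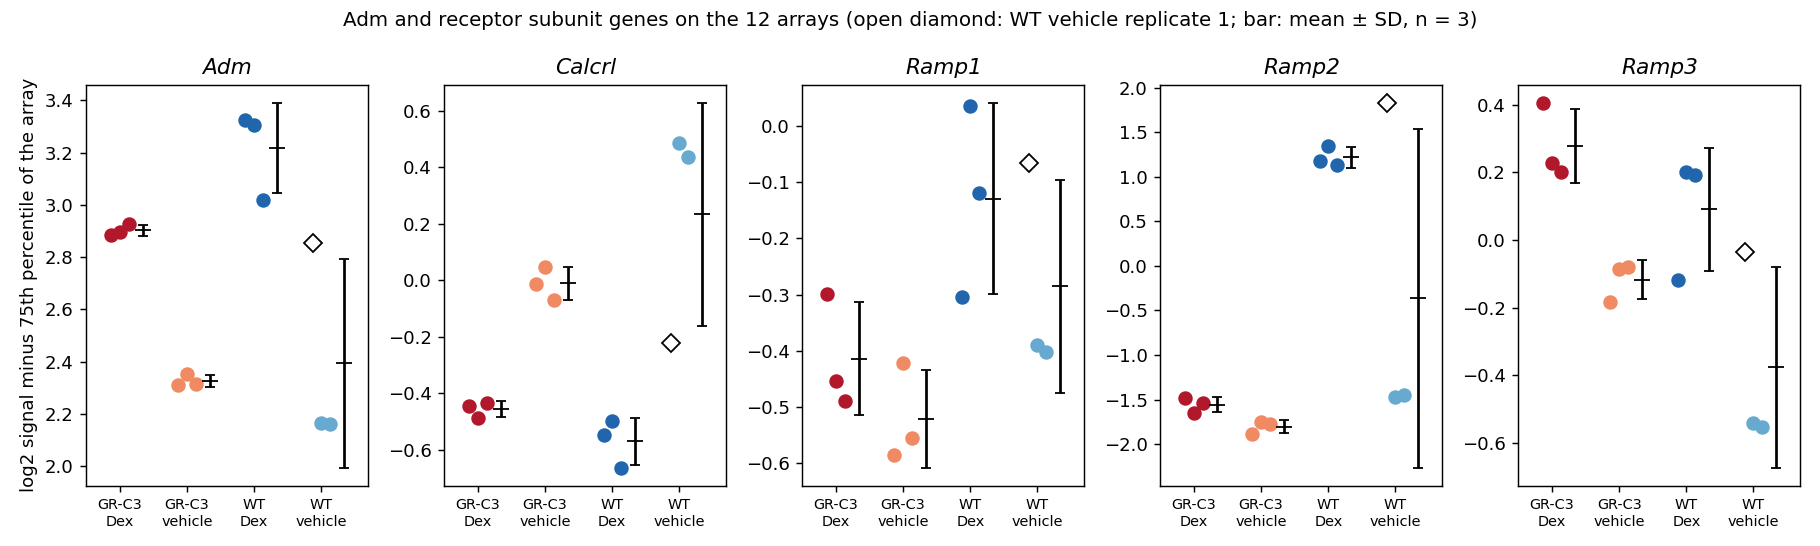
Levels of the 5 genes on each of the 12 arrays, as log2 signal minus the 75th percentile of the array (y axis, own range per gene), for GR-C3 Dex, GR-C3 vehicle, WT Dex and WT vehicle. Points are arrays, the open diamond is WT vehicle replicate 1, and bars are mean ± SD (n = 3). In Ramp2 the WT Dex arrays lie between 1.13 and 1.35, the diamond lies at 1.83 and the other 8 arrays lie below -1.4.

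Adm encodes the ligand. Its level was 2.89, 2.90 and 2.93 in GR-C3 Dex, against 2.31, 2.35 and 2.32 in GR-C3 vehicle. It was 3.33, 3.31 and 3.02 in WT Dex, against 2.86, 2.17 and 2.16 in WT vehicle. In both genotypes every Dex array was above every vehicle array, including the WT vehicle array that stood apart. The Dex change in GR-C3 cells was 0.58 on the log2 scale, or 1.49-fold, with SE 0.17 and adjusted p = 0.22 on 12 arrays. On 11 arrays the SE was 0.092 and the adjusted p was 0.0088. In WT cells Adm changed by 0.82 (SE 0.17, adjusted p = 0.0977) with 12 arrays and by 1.05, or 2.08-fold (SE 0.10, adjusted p = 0.000141), with 11. The difference between these responses, GR-C3 Dex change minus WT Dex change, was -0.25 (SE 0.24, adjusted p = 0.917) with 12 arrays and -0.48 (SE 0.14, adjusted p = 0.149) with 11, so neither set of arrays called it. Values within slides rest on single arrays: 1 slide holds 3 GR-C3 Dex arrays and 1 GR-C3 vehicle array (replicate 3), and another holds 1 WT Dex array (replicate 1) and 2 WT vehicle arrays. The fit assumes that each lone array varies like the other groups. On these arrays the Dex change of Adm was 0.59 (adjusted p = 0.0715) in GR-C3 cells and 1.16 (SE 0.13, adjusted p = 0.00311) in WT cells.

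Calcrl, the receptor that all 3 RAMPs can join, moved the other way. Its bright probe was at -0.45, -0.49 and -0.44 in GR-C3 Dex, against -0.01, 0.05 and -0.07 in GR-C3 vehicle. In WT Dex it was at -0.55, -0.50 and -0.66, against -0.22, 0.48 and 0.43 in WT vehicle. Every Dex array was below every vehicle array in both genotypes. Calcrl fell by 0.45 on the log2 scale in GR-C3 cells with 11 arrays (SE 0.077, adjusted p = 0.0131). With 12 arrays that difference was the same and was not called (SE 0.16, adjusted p = 0.335). In WT cells the change was -0.80 (SE 0.16, adjusted p = 0.0888) with 12 arrays and -1.03 (SE 0.086, adjusted p = 5.27e-05) with 11, when vehicle was 2.04-fold above Dex. The responses differed by 0.36 (SE 0.23, adjusted p = 0.861) with 12 arrays and by 0.58 (SE 0.11, adjusted p = 0.0473) with 11, the WT decrease being the larger. That call was made in 2 of 26 alternative settings, a count that includes the 11-array fit itself and settings that keep WT vehicle replicate 1. Without that array the call was lost with the replicate number as a block (0.59, adjusted p = 0.066) and with normexp on repaired backgrounds (0.59, adjusted p = 0.0778). Within slides, with the same lone GR-C3 vehicle and WT Dex arrays, the Dex change was -0.39 (adjusted p = 0.139) in GR-C3 cells and -1.01 (adjusted p = 0.00257) in WT cells, and the difference of 0.62 was not called (adjusted p = 0.238). The dim Calcrl probe was well above background on 1 GR-C3 Dex, 2 GR-C3 vehicle, 1 WT Dex and 2 WT vehicle arrays, so it did not enter the tests.

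Ramp2, whose protein forms an adrenomedullin receptor with that of Calcrl, had the largest Dex change in WT cells and the largest genotype difference under Dex of the 5 genes. Its level was -1.48, -1.65 and -1.54 in GR-C3 Dex, against -1.89, -1.75 and -1.77 in GR-C3 vehicle. In WT Dex it was 1.18, 1.35 and 1.13, against 1.83, -1.47 and -1.45 in WT vehicle. The GR-C3 Dex arrays were above the GR-C3 vehicle arrays, and lay next to WT vehicle replicates 2 and 3. WT Dex and WT vehicle overlapped through WT vehicle replicate 1 alone, whose Ramp2 level was the highest of all 12 arrays. The Ramp2 probe was well above background on all 12 arrays, with processed signals of 315.4 to 6462.

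In GR-C3 cells the Ramp2 Dex change was 0.25 on the log2 scale and was called neither with 12 arrays (SE 0.67, adjusted p = 0.909) nor with 11 (SE 0.089, adjusted p = 0.185). In WT cells it was 1.58 with 12 arrays, not called (SE 0.67, adjusted p = 0.275), and 2.68 with 11 (SE 0.099, adjusted p = 2.47e-07). The 11-array value was rank 34 from the top of 20836 genes. The GR-C3 minus WT difference of the responses was -1.33 (SE 0.95, adjusted p = 0.875) with 12 arrays, a comparison in which 0 genes were called by limma and 1282 had an unadjusted p under 0.05. With 11 arrays it was -2.43 (SE 0.13, adjusted p = 6.66e-05), rank 25 from the bottom, where 0.816% of all genes were called lower and 0.322% higher. Of the 5 genes, that fit called Ramp2 lower and Calcrl higher. Within slides, where WT vehicle replicate 1 has no part and the lone arrays are WT Dex replicate 1 and GR-C3 vehicle replicate 3, the Dex change was 0.22 (adjusted p = 0.545) in GR-C3 cells and 2.64 (SE 0.13, adjusted p = 0.000104) in WT cells. The difference of the responses was -2.42 on these arrays (SE 0.18, adjusted p = 0.00927), with a single array in 1 group of each genotype.

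**Figure D2:**
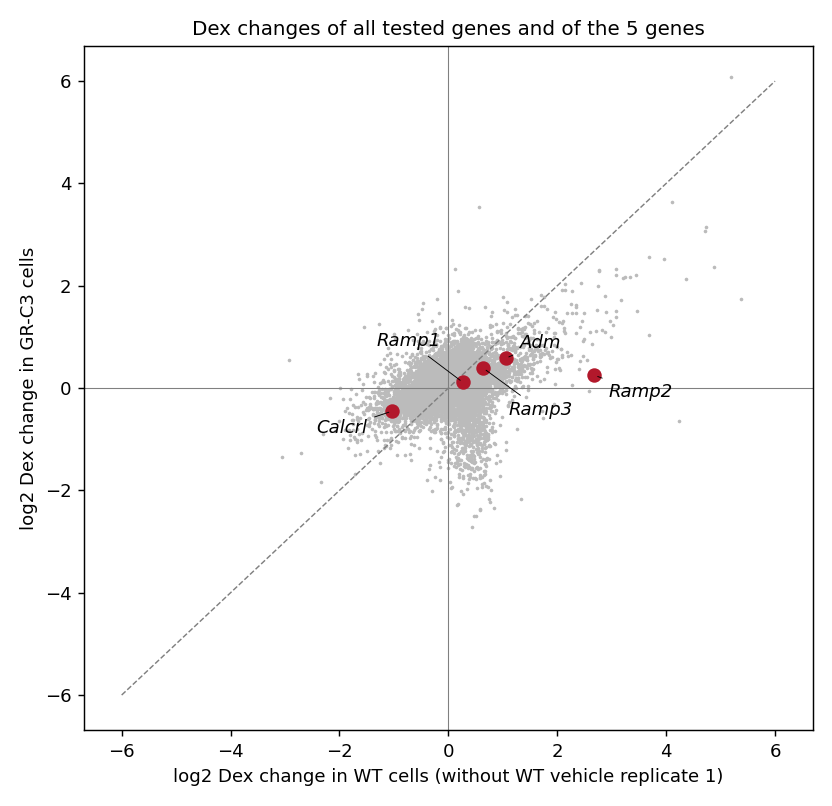
log2 Dex change in GR-C3 cells (y axis) against that in WT cells (x axis) for all 20836 tested genes (grey) and the 5 genes (red), without WT vehicle replicate 1. The dashed line marks equal change: Ramp2, at 2.68 in WT and 0.25 in GR-C3 cells, lies far below it, while Adm lies at 1.05 and 0.58 and Calcrl at -1.03 and -0.45.

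Ramp1 and Ramp3 encode the other RAMPs. The bright Ramp1 probe was at -0.30, -0.45 and -0.49 in GR-C3 Dex, against -0.58, -0.42 and -0.56 in GR-C3 vehicle. It was at -0.30, 0.04 and -0.12 in WT Dex, against -0.07, -0.39 and -0.40 in WT vehicle. Dex and vehicle overlapped in both genotypes, in WT cells through replicate 1 of the vehicle group. The Ramp1 Dex change was 0.11 in GR-C3 cells (adjusted p = 0.766 with 12 arrays and 0.609 with 11). In WT cells it was 0.16 (adjusted p = 0.563) with 12 arrays and 0.27 (adjusted p = 0.171) with 11. The dim Ramp1 probe was well above background on 1 array, in WT vehicle, and was not tested.

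Ramp3 was at 0.40, 0.23 and 0.20 in GR-C3 Dex, against -0.18, -0.09 and -0.08 in GR-C3 vehicle. It was at -0.12, 0.20 and 0.19 in WT Dex, against -0.03, -0.54 and -0.55 in WT vehicle. The GR-C3 groups did not overlap, and the WT groups did so through replicate 1 of WT vehicle and replicate 1 of WT Dex. In GR-C3 cells the change was 0.39 and was not called with 12 arrays (SE 0.15, adjusted p = 0.355) or 11 (SE 0.10, adjusted p = 0.078). In WT cells it was 0.47 (SE 0.15, adjusted p = 0.188) with 12 arrays and 0.64, or 1.56-fold (SE 0.12, adjusted p = 0.00647), with 11. Within slides the WT change was 0.43 and was not called (adjusted p = 0.104), with WT Dex replicate 1, the lowest of the 3 WT Dex arrays for Ramp3, as the lone Dex array. The Dex responses of Ramp1 and Ramp3 differed between the genotypes by -0.05 and -0.07 with 12 arrays and by -0.16 and -0.24 with 11, with adjusted p of 0.976, 0.968, 0.666 and 0.506 in that order.

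Some markers of other cell types also moved with Dex on 11 arrays. With 12 arrays Kcnj8 in GR-C3 cells was the 1 marker called for Dex (adjusted p = 0.0444). Kdr, an endothelial receptor gene, changed by 0.59 (adjusted p = 0.0153) in GR-C3 and by -0.51 (adjusted p = 0.0204) in WT cells, and these responses differed by 1.10 (adjusted p = 0.0125). It was the 1 called gene of 7 tested endothelial markers in each genotype. Lyve1, a lymphatic endothelial marker, rose by 1.55 in GR-C3 and by 1.81 in WT cells (adjusted p = 0.00017 and 3.76e-05), as 1 of 4 in that list. It was dim under vehicle, at -5.36 in GR-C3 and -4.56 in WT cells (12 arrays), so the size of its changes is uncertain. In GR-C3 cells Kcnj8 rose by 0.67, as 1 of 5 mural markers. In WT cells 2 of 6 macrophage markers (Ptprc and Adgre1) and 1 of 3 tested epithelial markers (Krt18) fell. Of 10 fibroblast markers, Pdgfra rose by 0.94 (adjusted p = 0.0019) in WT cells, and 0 were called in GR-C3 cells. These counts are to be read against all genes, of which 2.08% rose and 1.37% fell in GR-C3 cells. In WT cells 5.37% of all genes rose and 6.86% fell. The part of these markers in the Dex changes of Adm, Calcrl, Ramp2 and Ramp3 was not tested.

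**Figure D3:**
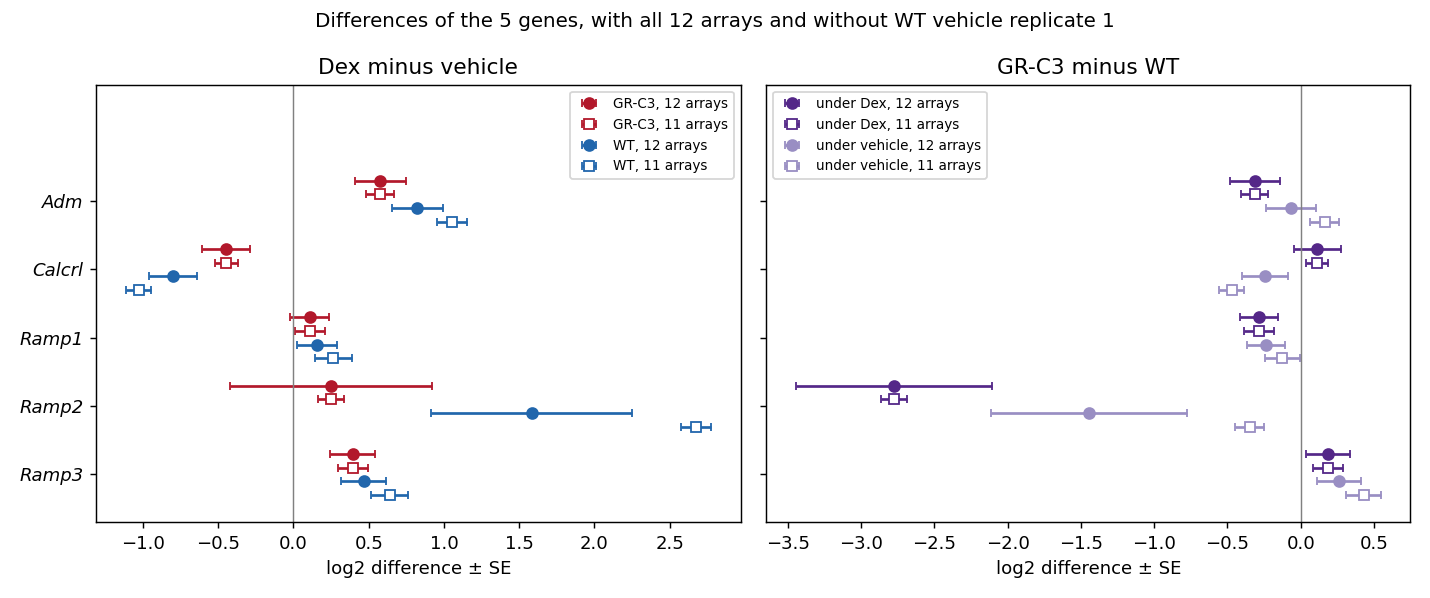
log2 differences ± SE of the 5 genes. Left, Dex minus vehicle in GR-C3 and WT cells, and right, GR-C3 minus WT under Dex and under vehicle, each with 12 arrays (filled circles) and without WT vehicle replicate 1 (open squares). The Ramp2 SE is 0.67 with 12 arrays and 0.089 or 0.099 with 11, and the GR-C3 minus WT difference of Ramp2 under Dex is -2.78 with both.

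Under Dex, GR-C3 and WT cells differed in Ramp2, a comparison that does not involve the WT vehicle arrays except through the shared estimate of spread. Ramp2 was -2.78 on the log2 scale in GR-C3 Dex relative to WT Dex, the WT level being 6.85-fold higher, with adjusted p = 0.0109 on 12 arrays (SE 0.67) and 5.25e-08 on 11 (SE 0.089). It was rank 46 from the bottom of 20836 genes with both. With 12 arrays Ramp2 was the 1 of 5 genes called, as lower, where 29.6% of all genes were called and 12.1% were lower. Adm was at -0.31 in GR-C3 Dex relative to WT Dex (adjusted p = 0.183 with 12 arrays), a difference called with 11 arrays (SE 0.092, adjusted p = 0.0222), where 16.1% of all genes were lower and 24.6% higher. Calcrl differed by 0.11 (adjusted p = 0.624 and 0.258 with 12 and 11 arrays), Ramp1 by -0.28 (0.111 and 0.0504) and Ramp3 by 0.19 (0.365 and 0.175).

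Under vehicle, 0 of the 5 genes were called between GR-C3 and WT cells with 12 arrays, where 24.8% of all genes were. Without WT vehicle replicate 1, Calcrl and Ramp2 were lower and Ramp3 was higher in GR-C3 vehicle, with 11.1% of all genes called lower and 16.2% higher. Calcrl was -0.24 (adjusted p = 0.307) with 12 arrays and -0.47 (SE 0.086, adjusted p = 0.00319) with 11. Ramp2 was -1.44 (SE 0.67, adjusted p = 0.145) with 12 arrays and -0.35 (SE 0.099, adjusted p = 0.0269) with 11, so 1 array set most of the larger value. Ramp3 was 0.26 (adjusted p = 0.24) and 0.43 (SE 0.12, adjusted p = 0.022). Ramp1 stayed uncalled at -0.24 and -0.13 (adjusted p = 0.205 and 0.44), and so did Adm, at -0.07 and 0.16 (adjusted p = 0.805 and 0.265). The median of all genes was itself 0.127 above 0 under Dex and 0.11 under vehicle (12 arrays, GR-C3 minus WT), so a difference of a gene relative to the rest is lower by about that much. The medians of the 5 genes were -0.285 and -0.236.

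No slide held the 2 genotypes under 1 treatment, so a genotype difference could not be taken within a slide, and with slide as a block it rests on the other treatment groups. With that block Ramp2 under Dex was -2.85 (SE 0.17, adjusted p = 0.000177), and no other genotype difference of the 5 genes was called. Some markers of other cell types also differed between the genotypes. These values are with 12 arrays, so those of WT vehicle include replicate 1. Summed linear levels of 10 endothelial markers, of which Cdh5 and Tie1 were well above background on no array, were 3.69 to 4 in GR-C3 Dex, 3.48 to 3.59 in GR-C3 vehicle, 1.6 to 2.06 in WT Dex and 1.67 to 1.98 in WT vehicle. Emcn (1.94 under Dex and 1.89 under vehicle, GR-C3 minus WT) and Kdr (2.40 and 1.44) were the 2 called genes of 7 tested, with 12 arrays. Over all genes 29.6% were called under Dex and 24.8% under vehicle, and counts of called markers are to be read against those shares. Sums of 5 epithelial markers, with Cdh1 above background on no array, were 1.59 to 1.71, 2.02 to 2.44, 0.466 to 0.619 and 0.563 to 0.711 in the same order of groups. Krt18 differed by 2.48 under Dex and 2.29 under vehicle, while Krt14 was at -0.88 under Dex. For 5 mural cell markers, which mark the cells around vessels, the sums were 12.1 to 12.6, 12.1 to 13.4, 15.1 to 16.9 and 14 to 20.2. Those sums follow Cspg4 (-0.84 under Dex), the brightest of the 5, at 2.82 in GR-C3 Dex and 3.66 in WT Dex. Notch3 (-0.53) was also lower, while Des (3.25), Kcnj8 (1.51) and Rgs5 (0.69) were higher in GR-C3 Dex. The median of the 5 was 0.695. Sums of 4 lymphatic endothelial markers were 0.636 to 0.802, 0.574 to 0.634, 0.982 to 1.06 and 0.918 to 1.15, with Pdpn (-0.56 under Dex and -0.84 under vehicle) the 1 called gene. A sum of linear levels is thus set by its bright probes, and in each of these 4 lists members differed in size or direction. Sums of 6 macrophage markers overlapped between the genotypes, at 0.456 to 0.536 over the GR-C3 arrays and 0.455 to 0.611 over the WT arrays. Within that list Ptprc (-1.04 under Dex and -1.25 under vehicle) and Aif1 (0.95 under Dex) were called with 12 arrays. All 10 fibroblast markers were above background on some arrays, with sums of 805 to 949 in GR-C3 and 733 to 1020 in WT cells. Of these, Dcn (-0.96 under Dex and -0.86 under vehicle), Col3a1 (-0.40 and -0.45) and Fn1 (-0.64 under Dex) were called lower in GR-C3 cells. With 12 arrays 0 were called higher. The part of these markers in the genotype differences of Ramp2, Calcrl and Ramp3 was not tested, and in bulk RNA fewer cells of a type and less RNA per cell cannot be told apart.

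The order of the 4 groups by mean level differed between the genes. With 11 arrays WT vehicle holds 2 arrays, and no share of all genes with such orders is given here, so these are descriptions. For Adm with 11 arrays it ran, low to high, WT vehicle (2.16), GR-C3 vehicle (2.33), GR-C3 Dex (2.90) and WT Dex (3.22), with no overlap between neighbours. With 12 arrays WT vehicle averaged 2.39 and overlapped with GR-C3 vehicle. For Calcrl the order was WT Dex (-0.57), GR-C3 Dex (-0.46), GR-C3 vehicle (-0.01) and WT vehicle (0.46 with 11 arrays), again with no overlap. The highest WT Dex array (-0.50) and the lowest GR-C3 Dex array (-0.49) nearly touched, and those 2 groups were not called different. With 12 arrays WT vehicle averaged 0.23 and overlapped with GR-C3 vehicle. Ramp2 ran GR-C3 vehicle (-1.81), GR-C3 Dex (-1.56), WT vehicle (-1.46 with 11 arrays) and WT Dex (1.22), without overlap. WT vehicle averaged -0.363 ± 1.9 (SD, n = 3) with all arrays and then overlapped with WT Dex. Ramp3 ran WT vehicle (-0.55 with 11 arrays), GR-C3 vehicle (-0.12), WT Dex (0.09) and GR-C3 Dex (0.28), with overlap between GR-C3 vehicle and WT Dex. With 12 arrays WT vehicle averaged -0.38 and overlapped with GR-C3 vehicle as well. Ramp1 ran GR-C3 vehicle (-0.52), GR-C3 Dex (-0.41), WT vehicle (-0.40 with 11 arrays) and WT Dex (-0.13), and of the neighbours only WT vehicle and WT Dex did not overlap. With 12 arrays these neighbours overlapped too.

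Among 15944 named genes, those whose 12 levels followed each of the 5 genes most closely by Pearson's r were listed. The points share groups and arrays, so these are descriptions. For Ramp2 they were Mras (0.992), Sesn1 (0.991) and Wnk4 (0.988). Wnk4 changed by 0.08 with Dex in GR-C3 cells and by 1.95 in WT cells on 11 arrays, Sesn1 by 0.31 and 1.22, and Mras by 0.11 and 0.73. Those for Adm were Fibin (0.968), Fkbp5 (0.968) and Mt2 (0.966), and those for Calcrl were Scx (0.972), Pls1 (0.963) and Nfkbie (0.955). Ramp1 was followed by Ctps2 (0.968), Rapsn (0.96) and Tbx2 (0.953), and Ramp3 by Clca3a2 (0.953), Mab21l4 (0.941) and Tmem63a (0.938).

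Other genes of the ligand family, of RAMP partners and of the signal's path were taken from lists chosen by function. None was called for Dex with 12 arrays in either genotype. The calls below for Dex are with 11 arrays, where 2.08% of all genes rose and 1.37% fell in GR-C3 cells and 5.37% rose and 6.86% fell in WT cells. Of 8 tested genes of the calcitonin family and of peptide processing or clearance, 0 were called in GR-C3 cells and 1 fell in WT cells. It was Ackr3, a scavenging receptor that takes up adrenomedullin, at 0.13 (adjusted p = 0.555) in GR-C3 and -0.47 (adjusted p = 0.0306) in WT cells. Crcp, a component of the calcitonin gene-related peptide receptor, was at -0.19 (adjusted p = 0.294) in GR-C3 cells. The list's median was 0.01 in GR-C3 and 0.04 in WT cells. Of 5 other receptors that can pair with RAMPs, 0 were called in either genotype, with medians of -0.08 and 0.20. Pth1r, the parathyroid hormone receptor, was at 0.01 (adjusted p = 0.98) and 0.20 (adjusted p = 0.323) in GR-C3 and WT cells, and Gper1 at -0.30 (adjusted p = 0.164) and 0.32 (adjusted p = 0.0997).

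Of 20 genes of adenylyl cyclase and PKA signalling, which acts downstream of the receptor, 2 rose and 2 fell in GR-C3 cells and 3 rose and 4 fell in WT cells. Adcy5, an adenylyl cyclase, rose by 0.62 (adjusted p = 0.0492) in GR-C3 and by 2.20 (adjusted p = 2.36e-05) in WT cells. Its responses differed by -1.58 (adjusted p = 0.00978), the 1 such call of this list. Adcy7 fell by 0.41 and 0.57, and Crem, a cAMP-responsive transcription factor gene, fell by 0.42 and 0.55, in GR-C3 and WT cells. Adcy2 rose by 0.77 in GR-C3 and by 0.87 in WT cells, and these responses differed by -0.10, not called (adjusted p = 0.849). Arrb2, a beta-arrestin, fell by 0.55 in WT cells and by 0.25, not called (adjusted p = 0.163), in GR-C3 cells. The list's median was -0.02 in GR-C3 and 0.05 in WT cells.

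Of 19 hypoxia response genes other than Adm, 1 rose in GR-C3 cells and 5 rose in WT cells, and 0 fell in either. Ndrg1 rose by 0.65 (adjusted p = 0.00423) in GR-C3 and by 1.28 (adjusted p = 3.9e-05) in WT cells. Ankrd37, Bnip3 and Egln3 rose by 1.36, 1.12 and 0.37 in WT cells. The responses of Ankrd37 and Bnip3 differed between the genotypes by -0.92 (adjusted p = 0.0278) and -0.78 (adjusted p = 0.0323). The list's median Dex change was 0.08 in GR-C3 and 0.23 in WT cells. Vegfa, the best known of these targets, is among the 14 not called in WT cells.

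Of 20 other vasoactive peptides and their receptors, 0 rose and 2 fell in GR-C3 cells, and 3 rose and 2 fell in WT cells. Ednra, an endothelin receptor, fell by 0.50 in GR-C3 and by 0.61 in WT cells (adjusted p = 0.0252 and 0.00604). Vip, a vasodilator peptide, fell by 0.61 in GR-C3 cells and by 0.43, not called (adjusted p = 0.0696), in WT cells. In WT cells Ptger4, a prostaglandin E receptor, changed by -1.21, Edn3 by 1.45 and Nppc, a natriuretic peptide, by 0.79. The list's median was 0.00 in GR-C3 and 0.02 in WT cells.

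**Figure D4:**
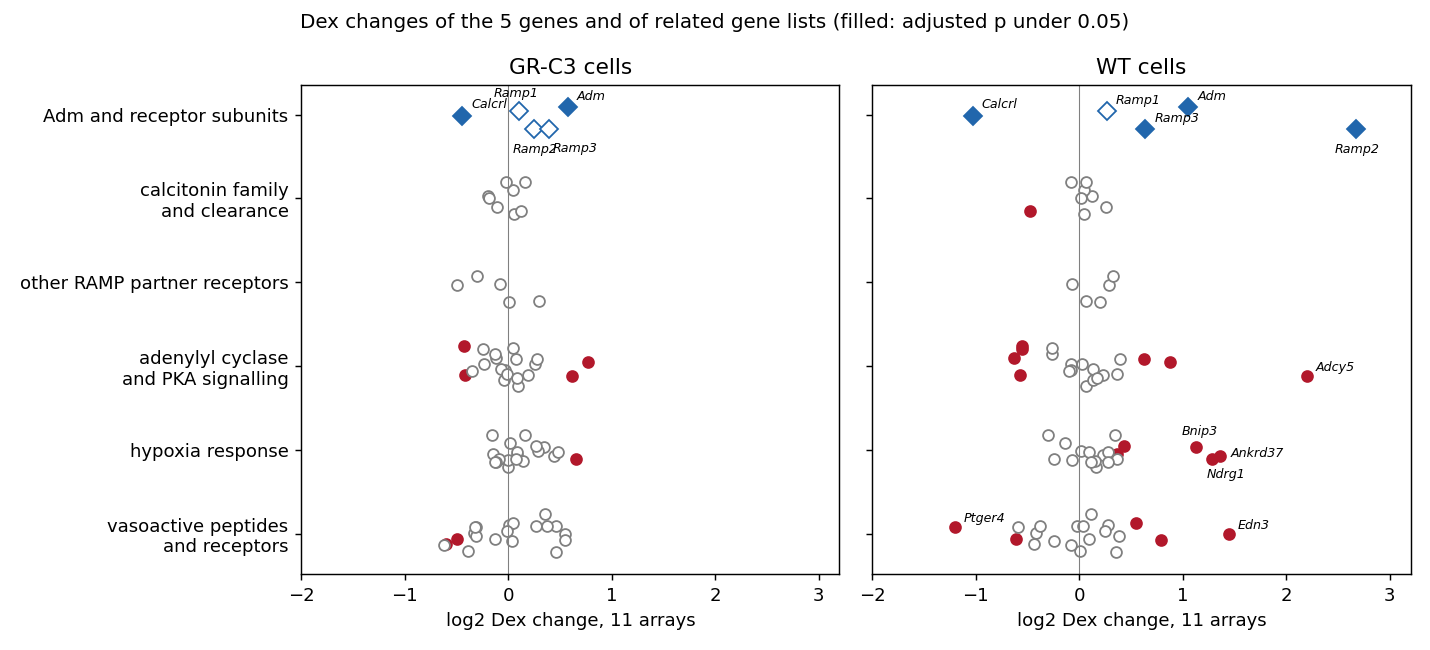
log2 Dex change with 11 arrays (x axis) of the 5 genes (diamonds) and of 5 lists of related genes (circles), in GR-C3 cells (left) and WT cells (right). Filled symbols have an adjusted p under 0.05, and height within a row carries no meaning. Ramp2 at 2.68 lies to the right of every list gene in WT cells, and Adcy5 at 2.20 is the nearest.

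Between genotypes 29.6% of all genes were called under Dex and 24.8% under vehicle with 12 arrays, and the counts of these lists are to be read against those shares. The list values between genotypes are with 12 arrays unless stated, so those under vehicle include WT vehicle replicate 1. Of the 8 calcitonin family and clearance genes, 2 were higher and 4 lower in GR-C3 cells under Dex and likewise under vehicle (12 arrays). Mme, a peptide-degrading enzyme, was at -1.60 under Dex and -1.57 under vehicle. Calca, the calcitonin and calcitonin gene-related peptide gene, was at 1.47 and 1.51. Pam, the enzyme that amidates adrenomedullin, was at -0.50 under both treatments, and Ackr3 was at -0.49 and -0.95. Pth1r was the 1 called gene of the 5 RAMP partner receptors, at -1.34 and -1.26. All of these named genes passed the test under both treatments.

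Of the 20 cyclase and PKA genes 4 were higher and 4 lower in GR-C3 cells under each treatment. Adcy7 was at 1.35 under both, Adcy5 at -2.22 under Dex, Adcy2 at -0.96 under vehicle, and Prkar2b, a regulatory subunit of PKA, at 0.86 and 1.30. Hypoxia response genes had 4 higher and 1 lower of 19 under each. Egln3, an oxygen sensor, was at 1.57 and 2.04, Pgk1 at 0.50 and 0.64, and Hk2 at 0.90 and 0.77. Bnip3, the 1 lower gene, was at -1.16 and -0.70. Among the 20 vasoactive genes 7 were higher and 5 lower under Dex, and 6 and 4 under vehicle. Nts, the neurotensin gene, had the largest of these differences at 2.62 and 3.27, Npr3 was at -1.11 and -1.40, Nppa at 1.22 and 1.36, and Ednra at 1.39 and 1.50. Nts was dim in WT cells, at -5.81 under Dex and -5.84 under vehicle, so the size of its difference is uncertain.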

How the data were processed

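RNA of 12 samples was hybridised to 12 one-colour Agilent arrays (45018 spots, 41174 distinct non-control probes). The deposited scanner files hold the authors' processed intensity of each spot, background-subtracted by Agilent Feature Extraction 9.5.3.1 per the file headers (9.5 per the submitters' processing notes), with no scaling across arrays. Intensity in the deposited series matrix was the same for all 45018 spots within 1e-09, so its scale is linear and uncentred. Groups came from the labels.

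From the deposited intensity, log2 minus the 75th percentile of the array was computed. Control spots and outlier-flagged spots were left out, and spots of a probe averaged. A probe was kept if every array of some group called it well above background (30934 probes), and the brightest kept probe of each gene was used (20836 genes). A RefSeq table named 22951 probes by accession, 6659 by symbol and 3109 by synonym, and 8455 kept the file's name. limma 3.58.1 (R 4.3.3), with a coefficient for each group in lmFit followed by eBayes, tested Dex in each genotype, genotype under each treatment and the interaction, with p-values adjusted over all genes, and was tested on simulated data. The smallest p of an exact permutation test between 3 and 3 arrays is 0.1, so none was used. Within-slide values come from a fit with slide as a block. A gene counts as higher or lower between groups when adjusted p is under 0.05.

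The 5 genes and the related lists were chosen with earlier results of these data known. List genes were named by a rule: called members, at most 4 per list and comparison by smallest p, or, with no call, the 2 brightest members. A gene that the rule took is not reported here. For Dex, calls with 11 arrays were used. The 3 genes most like each of the 5 were named by correlation. Vegfa and further values of genes named in another comparison were added after their values were seen, as were Fkbp5 and Nr3c1.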

Additional observations from a re-analysis of the deposited data

Results flagged for a closer look

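The Dex response of Ramp2 differed between GR-C3 and WT cells by -2.43 on the log2 scale without WT vehicle replicate 1, by limma's test of the difference (adjusted p = 6.66e-05, SE 0.13). The change was 0.25 in GR-C3 cells and 2.68 in WT cells, and with all 12 arrays the difference was -1.33 (adjusted p = 0.875). The Dex response of Calcrl differed by 0.58 by the same test on 11 arrays (adjusted p = 0.0473, SE 0.11), with changes of -0.45 in GR-C3 and -1.03 in WT cells, and by 0.36 (adjusted p = 0.861) on 12. The Calcrl call was made in 2 of 26 alternative settings. That count includes the 11-array fit itself, and many of the settings keep WT vehicle replicate 1, so it does not measure how firm the call is. The part of slide, scan day and sample in the WT vehicle array that sets these apart was not tested.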

How the results depend on the processing

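The Dex changes in WT cells kept their direction under all 27 alternatives, and were called in 7 (Adm, Calcrl, Ramp2), those without WT vehicle replicate 1 or with the slide block, or 4 (Ramp3), all without that array. Ranges over leaving out 1 array were 0.71 to 1.05 (Adm), -1.03 to -0.68 (Calcrl), 1.03 to 2.68 (Ramp2) and 0.38 to 0.64 (Ramp3) in WT cells, and 0.57 to 0.59 (Adm) and -0.48 to -0.42 (Calcrl) in GR-C3 cells. For the difference of the responses they were -0.16 to 0.03 (Ramp1), -2.43 to -0.78 (Ramp2), 0.23 to 0.58 (Calcrl) and -0.24 to 0.02 (Ramp3). Under vehicle they were -0.18 to 0.16 (Adm), -0.47 to -0.12 (Calcrl), -1.99 to -0.35 (Ramp2) and 0.17 to 0.43 (Ramp3), and under Dex -0.41 to -0.26 (Adm). Leaving out an array other than WT vehicle replicate 1 changed no call of the 5 genes. With slide as a block, which for Dex equals the fit within slides and rests on 1 WT Dex and 1 GR-C3 vehicle array, Dex in WT cells gave Adm 1.16, Calcrl -1.01 and Ramp2 2.64, the response difference -2.42 for Ramp2 and 0.05 for Ramp1, and Adm under vehicle 0.33. With repaired normexp and no WT vehicle replicate 1, Dex in WT cells gave Adm 1.04, Calcrl -0.97, Ramp2 2.52 and Ramp3 0.64, Adm was 0.58 for Dex in GR-C3 cells, and the response difference was -2.29 for Ramp2 and 0.59, not called (adjusted p = 0.0778), for Calcrl. GR-C3 minus WT was -0.33 for Adm under Dex and 0.13 for Adm, -0.45 for Calcrl and 0.42 for Ramp3 under vehicle. With quantile normalization and no WT vehicle replicate 1, Dex in WT cells gave Adm 1.06, Calcrl -1.04, Ramp2 2.71 and Ramp3 0.66. In GR-C3 cells it gave Adm 0.59 and Calcrl -0.45, and the response differences were 0.59 for Calcrl and -2.50 for Ramp2. GR-C3 minus WT was then -0.39 for Adm under Dex and 0.08 for Adm, -0.48 for Calcrl, -0.33 for Ramp2 and 0.45 for Ramp3 under vehicle.

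A pairing by replicate number was not seen: 4 of 18 same-numbered pairs correlated above 0.1 (-0.215 to 0.214), and 5 of 12 arrays correlated best with their own number. These are deviations from means of 3 arrays, and in WT vehicle replicate 1 weighs on them, so a pairing is not excluded. With the replicate block and 12 arrays, 0 genes were called for Dex in WT and 10 in GR-C3 cells. With the replicate block and no WT vehicle replicate 1, Dex in WT cells gave Adm 1.04, Calcrl -1.04, Ramp2 2.69 and Ramp3 0.66, and in GR-C3 cells Adm 0.58 and Calcrl -0.45. The response difference of Ramp2 was -2.44 and that of Calcrl 0.59, no longer called (adjusted p = 0.066), Adm under Dex was -0.31, and under vehicle Adm was 0.15, Calcrl -0.48, Ramp2 -0.34 and Ramp3 0.45. On the arrays of the compared groups alone, Dex in GR-C3 cells was called for Adm (0.58) and Calcrl (-0.45). Plain normexp gave 0.34 for Adm, -0.52 for Calcrl and 1.18 for Ramp2 for Dex in WT cells, Adm 0.05 and Calcrl -0.07 under Dex, response differences of 0.18 for Adm and 0.18 for Calcrl, and Ramp2 under Dex -2.09 (adjusted p = 0.131), the 1 of 26 alternatives that did not call it; the cause was not tested. Repaired normexp gave Ramp1's response difference as 0.02. Genes called for Dex over all genes (21 in GR-C3, 25 in WT) became 123 and 44 with quantile normalization, 0 and 0 with plain normexp, 14 and 38 with repaired normexp, 10 and 0 with no filter, 34 and 15 with all kept probes, 12 and 15 with their mean, 689 and 0 on the compared groups alone, and 317 and 1019 with the slide block. The interaction, with 0 genes called by limma and 1282 at an unadjusted p under 0.05, moved to 3 with quantile normalization and 36 with the slide block, and genotype counts of 6175 (Dex) and 5160 (vehicle) to 456 and 378 with plain normexp and 3240 and 1630 with the slide block. Scan day was not run as a block, since its second day holds 1 array.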
